A study of Mus musculus with 4 samples.

Results

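The MHC class II genes examined here were 9 genes chosen by symbol from the 40092 genes of the count table. H2-Aa, H2-Ab1 and H2-Eb1 encode chains of the class II molecule. Cd74 encodes the invariant chain, which accompanies new class II molecules from the endoplasmic reticulum. H2-DMa and H2-DMb1 encode the exchange factor that removes the remnant of the invariant chain and lets peptide bind. Ciita encodes the co-activator on which class II transcription depends, and Rfx5 and Rfxap encode subunits of the RFX complex that binds class II promoters.

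The libraries were bulk RNA-seq of GFP+ alveolar type II (AT2) cells, the surfactant-secreting progenitors of the alveolus, sorted from mouse lung on day 14 after bleomycin (3 U/kg into the airway). There were 2 Ctrl libraries from Alkbh5flox/+; Sftpc-CreERT2; Rosa26-mTmG mice and 2 A5-CKO libraries from Alkbh5flox/flox; Sftpc-CreERT2; Rosa26-mTmG mice, all on a C57BL/6 background and all given tamoxifen. Ctrl mice were littermates that also carried the recombinase and 1 floxed allele, so the comparison is between the loss of 1 allele and of both in recombined cells, and there was no group without bleomycin. The recombinase was driven from the Sftpc promoter, which is active in AT2 cells. The green label of the Rosa26-mTmG reporter came on with recombination and marks lineage. In the paper's single-cell data of day 14, GFP+ cells included transitional and alveolar type I (AT1) cells. A GFP+ cell thus need not still be an AT2 cell. Age, sex and the number of mice behind each library are not given in the sources used here.

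Class II molecules display peptides of ingested proteins to CD4 T cells. Their genes are switched on together. RFX binds the X box of the promoter, NF-Y binds the Y box, and CIITA, which is induced by interferon-gamma, is recruited to them. Macrophages, dendritic cells and B cells carry class II constitutively, and AT2 cells are among the few epithelial cells known to carry it without prior stimulation. Mice of the C57BL/6 haplotype make no H2-Ea protein, so their surface class II is the H2-Aa and H2-Ab1 pair.

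The libraries held 18144865 to 20811757 counts, and 16661 genes had enough counts to be tested. Values are given as normalised read counts (CPM, counts scaled to the library size) with TMM-scaled library sizes, always in the order Ctrl 1, Ctrl 2, A5-CKO 1 and A5-CKO 2. A count of 3, taken as the floor of detection, was 0.128 to 0.177 CPM and covers counting error only. Alkbh5, the targeted gene, was at 81.7, 152, 19.3 and 36.6 CPM, with a log2 fold change of -2.06 (standard error, SE, 0.46). Its Benjamini-Hochberg adjusted p was 0.528 in edgeR's quasi-likelihood test. DESeq2 with default filtering gave an adjusted p of 0.0224 for it. Over all genes edgeR called 0 at an adjusted p under 0.05 and 1530 at an unadjusted p under 0.05, and DESeq2 called 59. With 2 libraries a group, the smallest two-sided p that an exact permutation test could give is 0.333.

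The AT2 label was checked with 12 AT2 markers, which summed to 57364, 83273, 43051 and 35440 CPM, with Sftpc at 15477 CPM in Ctrl 1. Markers of other cells were also present. The 12 macrophage markers summed to 930, 187, 174 and 1241 CPM. The 10 markers of endothelial and mesenchymal cells summed to 479, 294, 181 and 1150 CPM, and 8 plasma cell markers to 4187, 806, 1159 and 5462 CPM. Ctrl 1 and A5-CKO 2 were thus the high pair in each of these sums, across the genotypes, though not for every gene in them. The pattern was not limited to markers of other lineages. The 10 AT1 and transitional markers, which are epithelial, summed to 2964, 1796, 1902 and 2839 CPM, with the same high pair, again not for every gene. In bulk libraries such as these, fewer cells of a type and less RNA per cell cannot be told apart.

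The class II genes fell into 2 sets by their place in the genome. Cd74 lies on chromosome 18, Ciita on chromosome 16, and Rfx5 and Rfxap on chromosome 3. The other 5 lie on chromosome 17 from 34119693 to 34316674 (GRCm38.p6), in the class II part of the MHC. In this table that region was almost without counts, and the reading of those 5 genes turns on it. The region was bounded, after its values were seen, by the nearest protein-coding genes on either side with a mean of at least 50 CPM. These were Rab11b, which ends at 33760486, and H2-Q4, which starts at 35379617. The stretch of 1619 kb between them held 101 protein-coding genes. Of these, 15 (14.9%) had a mean of at least 1 CPM, against 60.6% on the rest of chromosome 17 and 60.4% on all other chromosomes. In the 1 Mb on its left and right the shares were 67.9% and 68.9%. A count of 0 in all 4 libraries was listed for 47 of the 101 genes (46.5%), against 17.8% on other chromosomes.

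**Figure D1:**
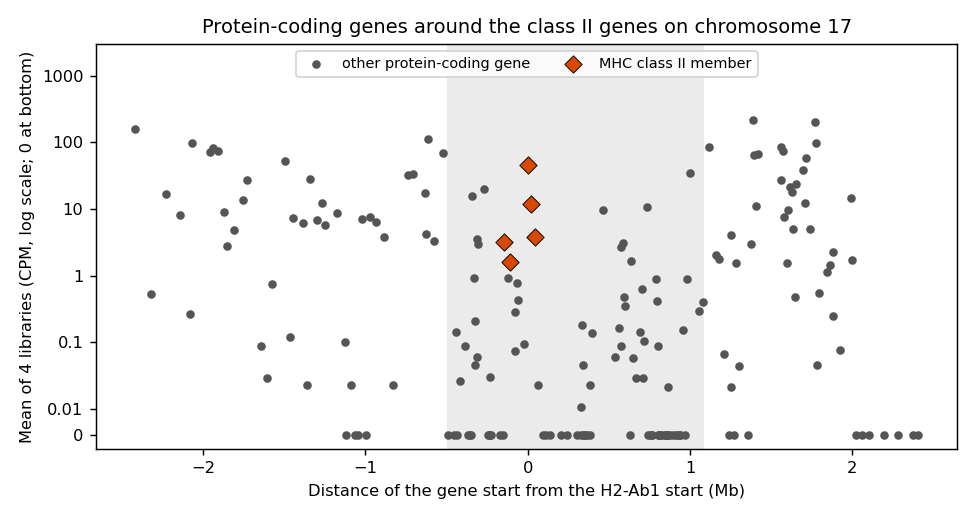
Mean CPM of the 4 libraries (log scale, genes at 0 along the bottom) for each protein-coding gene of the plotted part of chromosome 17 against the distance of its start from that of H2-Ab1 in Mb; the stretch is shaded and the 5 class II members in it are diamonds. In the shaded stretch 15 of 101 genes had at least 1 CPM, against 67.9% and 68.9% of the genes in the 1 Mb on either side.

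The empty stretch included genes that every cell uses. Their levels are given in CPM, not per length, and a count of 0 is 0 on both scales. Brd2, a chromatin reader that overlaps H2-DMa, was listed at 0 in all 4 libraries, while its relative Brd3 had a mean of 51.2 CPM. Csnk2b, the regulatory subunit of casein kinase 2, was also listed at 0, and its catalytic partners Csnk2a1 and Csnk2a2 were at 95.6 and 30.2 CPM. Ndufa7, a subunit of the respiratory NADH dehydrogenase, was listed at 0, against a median of 78.3 CPM over the 36 other subunit genes. Rps18, a ribosomal protein gene, had 94, 69, 23 and 79 counts, a mean of 3.50 CPM, and the median over 78 ribosomal protein genes outside the stretch was 392 CPM. Ring1, Bag6, Prrc2a and Atf6b were listed at 0 as well. These genes were picked after their values were seen. A listed 0 in a gene that every cell uses can be a failed estimate, and for that reason the counts of the 5 class II genes there cannot be read as their expression. Genes of class I presentation in the stretch were uneven. Tap1, Tap2, Psmb8 and Psmb9 had at most 27 counts in any library, whereas H2-D1 had 496 to 808, H2-K1 270 to 648 and Tapbp 119 to 645. The table also had 6 rows on patches of chromosome 17, and 0 of them were class II genes. Why the stretch was empty was not tested.

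**Figure D2:**
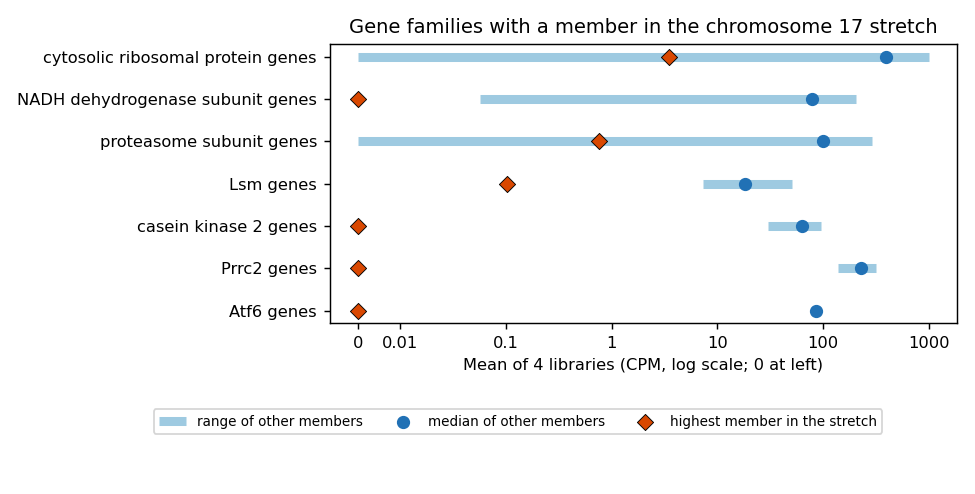
Mean CPM of the 4 libraries (log scale, 0 at the left edge) for gene families with a member in the chromosome 17 stretch; diamonds mark the family's highest member inside it, dots the median and bars the range of its members elsewhere. Csnk2b, Prrc2a, Atf6b and Ndufa7 sit at 0, against family medians of 62.9 to 228 CPM; 5 ribosomal protein and 4 proteasome genes elsewhere also lie below their family's member in the stretch.

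The promoters of 3 chromosome 17 genes are printed to show the letters that their X and Y boxes share. They belong to H2-Aa, H2-Eb1 and H2-DMb1, an α chain, a β chain and an exchange factor chain, and come from RefSeq's windows on GRCm38.p6, each read along the gene's own strand. Capitals mark the letters CTNGNAAC of an X-box-like stretch and ATTGG of a Y-box-like stretch. These letters were chosen after the windows had been read.
H2-Aa, chr17:34287852-34287922, minus strand: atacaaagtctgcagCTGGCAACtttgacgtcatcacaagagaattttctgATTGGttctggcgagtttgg
H2-Eb1, chr17:34305758-34305827, plus strand: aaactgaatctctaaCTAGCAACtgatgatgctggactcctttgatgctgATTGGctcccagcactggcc
H2-DMb1, chr17:34153079-34153149, plus strand: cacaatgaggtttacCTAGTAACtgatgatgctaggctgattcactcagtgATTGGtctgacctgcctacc

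In each the X-like letters came first and began 84 to 97 bases before the transcription start. The first Y letter lay 35 or 36 bases after the first X-like letter. Both strands were searched (GTTNCNAG and CCAAT are the reverse complements) over the 250 bases before each start. CTNGNAAC was found in 10.9% of 32851 windows of all genes, ATTGG in 33.8%, and the pair in this order, 20 to 40 bases from start to start, in 0.244%. RefSeq's windows were given for 5 of the 9 class II genes, and the pair was in these 3. The windows of H2-DMa and Rfx5 did not hold it, and H2-Ab1, Cd74, Ciita and Rfxap had no window. H2-Ob, which encodes a chain of the class II modulator H2-O, held the pair too, and H2-DMb2, H2-Oa and H2-Eb2 did not. The match is a description of letters and not of binding.

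Cd74 had the most counts of the 4 class II genes outside the stretch. It had 65290, 79965, 76403 and 48314 counts, or 3861, 4652, 3459 and 2065 CPM. It took 0.360%, 0.400%, 0.382% and 0.232% of all counts and ranked 13th, 14th, 9th and 18th of all genes. On the TMM scale the A5-CKO libraries were the lower 2 of the 4. In CPM of total counts, without TMM factors, Cd74 was at 3598, 3997, 3823 and 2321, with A5-CKO 1 above Ctrl 1, so the genotypes were separate only after TMM scaling and A5-CKO 2 alone was low on both scales. The means were 4257 ± 560 CPM (SD, n = 2) in Ctrl and 2762 ± 986 CPM (SD, n = 2) in A5-CKO. For the invariant chain gene the fitted log2 fold change was -0.62 with an SE of 0.44, and its Benjamini-Hochberg adjusted p was 0.627 in edgeR, so no difference was detectable. It was -0.33 without A5-CKO 2 and -1.05 without A5-CKO 1. It was -0.30 with total counts only and -0.26 when each library was corrected for GC content and transcript length, an alternative added once the values had been seen.

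Mir5107 is annotated inside Cd74 on the same strand and had 10410, 12629, 12608 and 7561 counts. Reads of the invariant chain transcript that cover it may have been counted there, and the 2 genes cannot be told apart at that place.

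Ciita was present in all 4 libraries, at 847, 1205, 1542 and 829 counts, or 50.1, 70.1, 69.8 and 35.4 CPM. The genotypes overlapped, since Ctrl 2 and A5-CKO 1 were level and A5-CKO 2 was lowest. The log2 fold change was -0.19 (SE 0.40, Benjamini-Hochberg adjusted p = 0.882 in edgeR). Its direction was not stable, being 0.13 with total counts only, 0.02 without Ctrl 2 and 0.18 without A5-CKO 2. Dexi, on the opposite strand, overlaps part of Ciita and had 375 to 542 counts.

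Rfx5, which encodes the DNA-binding subunit of RFX, was the only class II gene tested whose fitted change was positive. It had 434, 647, 1268 and 778 counts, or 25.7, 37.6, 57.4 and 33.3 CPM. A5-CKO 1 was the highest library and A5-CKO 2 lay between the Ctrl libraries, so the genotypes overlapped. In CPM of total counts, without TMM factors, they did not, at 23.9, 32.3, 63.4 and 37.4. The log2 fold change was 0.52 (SE 0.39, Benjamini-Hochberg adjusted p = 0.650 in edgeR). It was 0.06 without A5-CKO 1 and 0.83 without Ctrl 2. B230398E01Rik overlaps the end of Rfx5 on the opposite strand and had 91, 162, 399 and 238 counts, in the same order of libraries as the Rfx5 counts. Its part in the Rfx5 counts was not tested.

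Rfxap, the RFX-associated protein, varied least among the 9 class II genes. It had 238, 260, 336 and 260 counts, or 14.1, 15.1, 15.2 and 11.1 CPM. A5-CKO 1 was level with Ctrl 2, and A5-CKO 2 was the lowest. The log2 fold change was -0.15 (SE 0.40, Benjamini-Hochberg adjusted p = 0.909 in edgeR), and it was 0.17 with total counts only, 0.02 with the GC and length correction and 0.03 without A5-CKO 2. Total counts only moved the median log2 fold change of all genes from -0.02 to 0.30. Relative to that shift, Ciita and Rfxap were below the median gene.

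Per kilobase of annotated exons (GENCODE M21), Cd74 was at 2299, 2771, 2060 and 1230 CPM, far above the 3.72 to 7.35 CPM of Ciita, the 4.67 to 10.4 CPM of Rfx5 and the 4.96 to 6.78 CPM of Rfxap. The ranges of these 3 transcription genes overlapped, so no order among them is given. Per exon length Cd74 exceeded Ciita by 438-, 377-, 281- and 331-fold and Rfx5 by 493-, 405-, 197- and 203-fold.

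**Figure D3:**
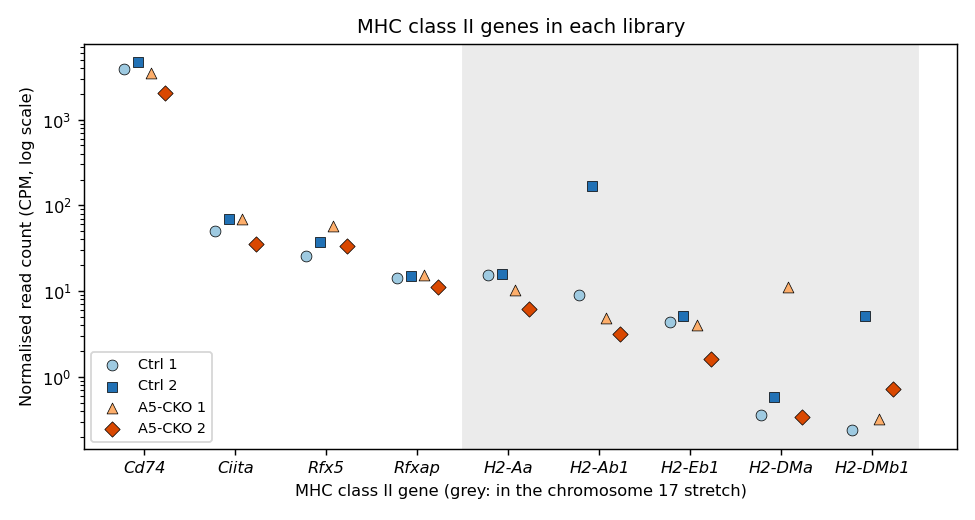
CPM (log scale) of the 9 class II genes in each of the 4 libraries, blue for Ctrl and orange for A5-CKO; the 5 genes in the chromosome 17 stretch are on grey. Cd74 lies between 2065 and 4652 CPM and Ciita, Rfx5 and Rfxap between 11.1 and 70.1 CPM, while H2-Ab1, H2-DMa and H2-DMb1 each stand out in 1 library.

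The counts of the 5 chromosome 17 genes are given for completeness. H2-Aa had 260, 268, 229 and 143 counts, or 15.4, 15.6, 10.4 and 6.11 CPM, and both A5-CKO libraries were below both Ctrl libraries. H2-Eb1 had 73, 88, 89 and 38 counts, or 4.32, 5.12, 4.03 and 1.62 CPM, with A5-CKO 2 far below the rest. In CPM of total counts, without TMM factors, H2-Eb1 was at 4.02, 4.40, 4.45 and 1.83, with A5-CKO 1 highest, so that its genotypes were separate only on the TMM scale, while those of H2-Aa were separate on both. Their log2 fold changes were -0.91 (SE 0.45) and -0.74 (SE 0.64), with Benjamini-Hochberg adjusted p of 0.540 and 0.694 in edgeR. Without A5-CKO 2 they were -0.61 and -0.26, and without A5-CKO 1 they were -1.35 and -1.55. In both genes, as in Cd74, the lowest library was A5-CKO 2.

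H2-Ab1 had 152, 2877, 108 and 73 counts, or 8.99, 167, 4.89 and 3.12 CPM. Ctrl 2 stood alone, 18.6-fold above the next library. The log2 fold change was -4.46 (SE 1.22), with a Benjamini-Hochberg adjusted p = 0.528 in edgeR (unadjusted 0.00824). It was -1.21 without Ctrl 2. H2-DMb1 had 4, 88, 7 and 17 counts, again high in Ctrl 2, and its log2 fold change of -2.34 (SE 1.29, Benjamini-Hochberg adjusted p = 0.565 in edgeR) turned to 1.09 without that library. H2-DMa had 6, 10, 249 and 8 counts, high in A5-CKO 1 by 19.4-fold over the next library. It had too few counts in the others to be tested. H2-DMa and H2-DMb1 encode the 2 chains of one exchange factor, and they were high in different libraries of opposite genotype.

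Some genes of the stretch were far higher in 1 library than in the others. Of its 21 protein-coding genes with at least 50 counts in all, 7 (33.3%) were at least 5-fold higher in 1 library than in any other. Elsewhere these were 65 of 13646 (0.476%), and 62 of 8424 (0.736%) when limited to totals no higher than in the stretch. Of the 7, only H2-Ab1 would have reached 50 counts without its high library. Where counts are otherwise low, the filter itself selects such genes, so these shares cannot show that they were more frequent in the stretch. Ctrl 2 was the high library for H2-Ab1, H2-DMb1, H2-DMb2 and Nelfe. A5-CKO 1 was the high library for H2-DMa, Vps52 and Skiv2l. Nelfe, a subunit of the negative elongation factor, had 8, 202, 0 and 6 counts, and Vps52, a vesicle tethering factor, had 12, 8, 232 and 6. The same 2 libraries were high in class II genes and in unrelated neighbours. This rule was chosen after the values were seen, and what sets the 2 libraries apart there was not tested.

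The other class II genes, all 5 of them in the stretch, had few or no counts. H2-DMb2, the second copy of the DM β chain, had 1, 53, 3 and 8 counts. H2-DMb1 and H2-DMb2 are close copies, and the paper's account of counting keeps uniquely mapped reads only. If that held here, reads that fit both copies would be left out of both counts. H2-Eb2 and H2-Ob did not exceed the floor of 3 counts in any library. H2-Oa and H2-Ea were listed at 0.

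As a group, 8 of the 9 class II genes were tested, H2-DMa being the one left out. By edgeR 0 passed the adjusted threshold of 0.05 (background 0.0% of 16661 genes) and likewise 0 by DESeq2 with default filtering (background 0.385%). At an unadjusted p under 0.05 in edgeR there was 1, H2-Ab1, against 9.18% of all genes tested (4.48% higher and 4.71% lower). The fitted change was lower in A5-CKO for 7 and higher for 1, and 4 of the 8 (H2-Aa, H2-Ab1, H2-Eb1 and Cd74) had both A5-CKO libraries below both Ctrl libraries, which held for 23.5% of all genes tested. Libraries of the genotypes did not overlap, in either direction, for 43.8% of all genes. The members' median log2 fold change was -0.68, and that of all genes was -0.02. With total counts only, 2 of the 8 were lower without overlap (H2-Aa and H2-Ab1) and 1 was higher (Rfx5), against 10.1% and 34.8% of all genes tested. Of the 4 on the TMM scale, 3 lie in the stretch. With the stretch left out, 3 of the 4 remaining genes were lower and 1 was higher, 1 of 4 (Cd74) did not overlap between genotypes on the TMM scale and 1 of 4 (Rfx5, higher) did not with total counts only, and the median was -0.17. This last median was 0.15 with total counts only.

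Cd74 and Ciita were set beside the cell markers. All 12 AT2 markers were lower in A5-CKO, with a median log2 fold change of -0.85. Of the 12, 8 did not overlap between genotypes (23.5% of all genes lower), or 5 with total counts only (10.1%). None passed the adjusted threshold in edgeR, and 2, Sftpb and Napsa, had an unadjusted p under 0.05 (4.71% of all genes lower). The median was -0.35 without Ctrl 2. On the TMM scale Cd74 had the same order of libraries as the AT2 sum, from Ctrl 2 through Ctrl 1 and A5-CKO 1 to A5-CKO 2. In CPM of total counts, without TMM factors, the AT2 sum kept that order and Cd74 did not, since A5-CKO 1 was above Ctrl 1. As a percentage of that sum, Cd74 was at 6.73%, 5.59%, 8.03% and 5.83%, and the genotypes overlapped. Ciita per 1000 CPM of AT2 markers was 0.873, 0.842, 1.62 and 1.00 CPM, with the A5-CKO libraries the higher 2 of the 4. The AT2 sum by which it was divided was itself lower in both A5-CKO libraries, which raises the ratio of any gene there. The CPM of Ciita overlapped between genotypes, and the share of all genes separate on this ratio was not computed. The order of the ratio thus cannot be read as a change of Ciita. The part that AT2 transcript levels play in the Cd74 values was not tested.

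Cells that carry class II constitutively were looked for by their own markers, whose sums ran in another order over the libraries than Cd74. C1qa, a complement gene of macrophages, was at 164, 8.90, 12.2 and 203 CPM. Of the 11 macrophage markers tested 8 were higher and 3 lower in A5-CKO (median 0.36), with none past the adjusted threshold in edgeR. Cd74 was highest in Ctrl 2, where the macrophage sum of 187 CPM was near its lowest, and lowest in A5-CKO 2, where that sum was highest at 1241 CPM. The 8 B cell markers summed to 154, 111, 130 and 86.1 CPM and split 4 higher and 4 lower. On the TMM scale 2 of them, Cd79a and Cd79b, had both A5-CKO libraries below both Ctrl libraries (23.5% of all genes tested). Cd79b was at 61.5, 50.9, 34.2 and 18.6 CPM, lowest in A5-CKO 2 as Cd74 was. Its log2 fold change was -1.09 (SE 0.39, unadjusted p = 0.0260 and Benjamini-Hochberg adjusted p = 0.528 in edgeR). The 10 dendritic cell markers summed to 114, 44.3, 65.8 and 85.4 CPM, with 4 of 9 tested higher and 5 lower. The 10 pan-leukocyte markers summed to 1186, 822, 693 and 1172 CPM, with 4 higher and 6 lower. Their leading gene by change, Ptprc, the leukocyte phosphatase CD45, was at 50.9, 22.5, 84.3 and 82.8 CPM, with a log2 fold change of 1.19 (SE 0.42, Benjamini-Hochberg adjusted p = 0.528 in edgeR). It was 1.95 without Ctrl 1 and 0.67 without Ctrl 2. How much of the Cd74 RNA came from such cells was not tested.

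**Figure D4:**
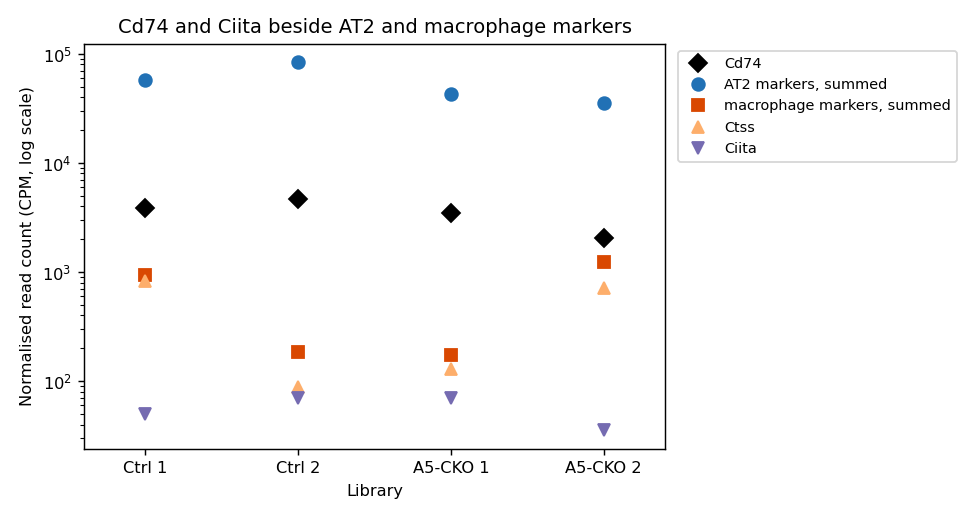
CPM (log scale) of Cd74, Ciita and the endosomal protease gene Ctss, with the summed CPM of 12 AT2 markers and of 12 macrophage markers, in each of the 4 libraries. Ctss and the macrophage sum are high in Ctrl 1 and A5-CKO 2 and low in the other 2 libraries, whereas Cd74 and the AT2 sum are highest in Ctrl 2 and lowest in A5-CKO 2.

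The other factors at class II promoters were measured by 8 genes, all tested. Of these, 5 were higher and 3 lower in A5-CKO, with a median log2 fold change of 0.12, and none passed the adjusted threshold in edgeR. Rfxank, the third subunit of RFX, was at 47.5, 40.4, 32.4 and 30.2 CPM, with both A5-CKO libraries below both Ctrl libraries, although they overlapped in CPM of total counts. Its log2 fold change was -0.49 (SE 0.31, Benjamini-Hochberg adjusted p = 0.588 in edgeR) and -0.31 without Ctrl 1. The fitted signs of the 3 RFX subunits thus differed, Rfx5 being positive and Rfxank and Rfxap negative (Rfxap positive in the alternatives named above), within standard errors of 0.31 to 0.40. NF-Y subunits were at 29.7, 25.9, 32.5 and 28.3 CPM for Nfyb and at 43.5, 62.5, 39.8 and 38.0 CPM for Nfyc. Nfya was low, at 1.24, 2.04, 0.951 and 0.385 CPM, and its libraries separated with a log2 fold change of -1.29 (SE 0.78), which was -0.81 without A5-CKO 2 and -2.08 without A5-CKO 1. The co-activator acetylases Crebbp, Ep300 and Kat2b had log2 fold changes of 0.26, 0.11 and 0.19.

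The route by which interferon-gamma induces Ciita was represented by 12 genes, 11 of them tested, and 5 were higher and 6 lower (median -0.13, none past the adjusted threshold in edgeR). Irf1, which acts at the Ciita promoter, was at 116, 105, 107 and 71.6 CPM and overlapped. The receptor genes Ifngr1 and Ifngr2 overlapped as well, at 95.8 to 118 and 61.2 to 129 CPM. Jak2, the kinase on the receptor, was at 50.2, 48.3, 117 and 57.9 CPM, with a log2 fold change of 0.83 (SE 0.39, Benjamini-Hochberg adjusted p = 0.528 in edgeR). A5-CKO 1 alone was far above the rest, and the change was 0.22 without it. Ifng itself had 5, 2, 28 and 0 counts and was not tested. Socs1, a feedback inhibitor of this route, was at 2.09 to 4.26 CPM.

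Genes that process antigen or act on class II after synthesis were measured by 15 genes, of which 14 were tested, with 3 higher and 11 lower in A5-CKO. Their median was -0.20, and none passed the adjusted threshold in edgeR. At an unadjusted p under 0.05 in edgeR there was 1 of the 14, against 9.18% of all genes tested (4.71% lower). The endosomal proteases Ctss, Ctsl and Ctse were high in the libraries in which macrophage markers were high. Ctss, the cathepsin that trims the invariant chain in professional antigen-presenting cells, was at 833, 87.8, 130 and 718 CPM. Ctsl, which does so in thymic epithelium, was at 341, 140, 124 and 361 CPM, and Ctse, another endosomal protease, was at 2.33 and 2.35 CPM in Ctrl 2 and A5-CKO 1 and above 17 CPM in the other 2. Those are Ctrl 1 and A5-CKO 2, 1 library of each genotype. Ctsh, a cathepsin of AT2 cells that processes surfactant protein, was at 3235, 2132, 1018 and 2170 CPM. The median without A5-CKO 2 was -0.87. Cd82, a tetraspanin of class II compartments, was the gene with an unadjusted p under 0.05, at 202, 187, 111 and 123 CPM (log2 fold change -0.73, SE 0.29, Benjamini-Hochberg adjusted p = 0.528 in edgeR). Cd63, another tetraspanin, was at 1080, 545, 444 and 516 CPM. Marchf1, the ubiquitin ligase that removes class II from the surface of dendritic and B cells, was at 9.99 and 2.62 CPM in Ctrl and at 5.66 CPM in A5-CKO 1, with A5-CKO 2 highest, and Marchf8, its epithelial relative, at 80.5, 132, 86.3 and 93.6 CPM. Ifi30, a thiol reductase of class II compartments, was listed at 0 in all 4 libraries, although it lies on chromosome 8.

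T cells that meet class II also read co-stimulatory or inhibitory ligands. Of 9 such genes 7 were tested, with 4 higher and 3 lower (median 0.37, none past the adjusted threshold in edgeR). The median turned to -0.32 without Ctrl 2, -0.39 without A5-CKO 2, -0.05 with DESeq2's default filtering and -0.11 with no filter on low counts. Cd80 was at 1.24, 0.873, 2.40 and 4.27 CPM, with both A5-CKO libraries above both Ctrl libraries and a log2 fold change of 1.65 (SE 0.67, Benjamini-Hochberg adjusted p = 0.528 in edgeR). Cd86, its partner ligand for CD28, was at 7.27, 0.582, 2.44 and 9.28 CPM, high in the libraries in which macrophage markers were high. Cd274, which encodes the inhibitory ligand PD-L1, was at 15.6, 4.83, 16.7 and 18.7 CPM, with Ctrl 2 apart from the other 3, and its log2 fold change of 0.79 (SE 0.59) was 0.14 without Ctrl 2 and 1.93 without Ctrl 1. Icam1, the adhesion ligand for T cells, was at 957 to 1268 CPM and overlapped. Markers of T cells themselves were low. The 8 genes summed to 48.7, 32.9, 39.9 and 19.2 CPM, and Cd4 was at 6.39, 5.41, 7.70 and 3.85 CPM. All 7 of them that were tested were lower in A5-CKO (median -0.38, none past the adjusted threshold in edgeR). Of the 7, 1 did not overlap between genotypes (23.5% of all genes lower). The median was -0.07 with total counts only.

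**Figure D5:**
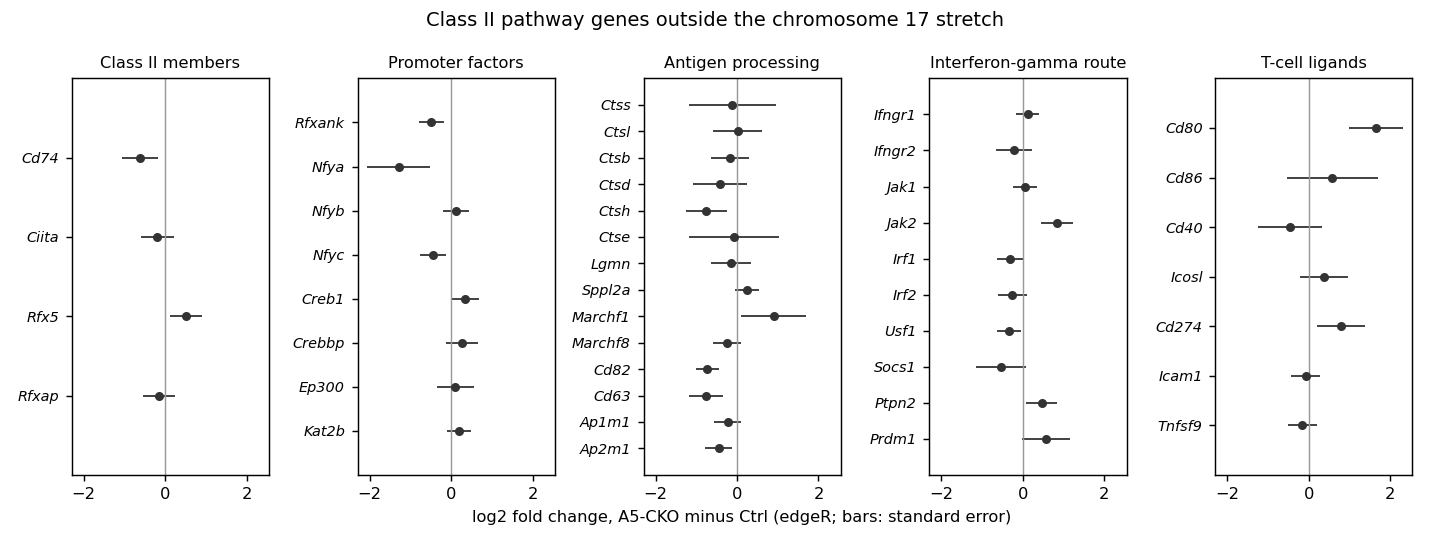
Log2 fold change, A5-CKO minus Ctrl, with standard errors from edgeR, for the class II members and genes of 4 pathway lists that were tested and lie outside the chromosome 17 stretch. The 5 panels hold genes on both sides of 0 and none has an adjusted p under 0.05; the widest bars belong to genes such as Ctss and Cd86 that were high in the libraries with high macrophage markers.

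Over these pathway lists together, 40 of 49 genes were tested, 17 higher and 23 lower in A5-CKO, with a median log2 fold change of -0.13. Of the 40, 4 had both A5-CKO libraries above and 8 had both below the Ctrl libraries, against 20.3% and 23.5% of all genes tested. With total counts only, 13 were above and 2 below, against 34.8% and 10.1%.

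The genes whose pattern over the 4 libraries was nearest to the mean of H2-Aa, H2-Ab1, H2-Eb1 and Cd74 were Ggt5, Cdh16, Bex4, Gpt, Itih1 and Sord, of 9918 genes with a mean of at least 10 CPM. The root mean square difference of their log2 deviations from that pattern was 0.05 to 0.15 over the 4 libraries. The class II genes themselves differed from their own mean pattern by 0.47 for H2-Eb1 up to 1.42 for H2-Ab1, so H2-Ab1, with its single high library, weighed most. Since 3 of these 4 genes lie in the stretch, this likeness cannot be read as one of class II expression. For Cd74 alone, a reference chosen after the values were seen, Camk2n1, Rnf135, Osgep, Gstt2 and Polr3gl lay nearest after Mir5107, at 0.03 to 0.04. Camk2n1 was at 129, 165, 119 and 72.4 CPM.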

How the data were processed

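RNA was taken from sorted GFP+ AT2 cells, and libraries were made with a SMARTER mRNA kit. The authors trimmed reads with Trim Galore 0.6.10, removed ribosomal RNA reads, aligned to mm10.p6 with HISAT2 2.2.1, removed duplicates and deposited raw counts per gene from featureCounts 2.0.3. The counting is described under another assay, and no strand setting is named in the sources used here, so overlapping and antisense genes are uncertain. That description keeps uniquely mapped reads only, so reads that fit several places in the genome would not be counted. What this filter did to the counts was not tested. Replicates were not pooled.

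Counts were analysed with edgeR 4.0.16 in R 4.3.3 (TMM, filterByExpr and the quasi-likelihood test at their defaults, Benjamini-Hochberg over 16661 genes). The standard error is the log2 fold change over the square root of F. TMM factors were 0.933, 0.860, 1.11 and 1.13, and the biological coefficient of variation was 41.6%. Counts of same-genotype libraries were not within sampling noise of each other (chi-square over its degrees of freedom 110 for Ctrl, 96.4 for A5-CKO). Nothing in the labels says which replicates share an animal or a day, and p-values measure the spread between these libraries only. Alternatives were DESeq2 1.42.0, limma voom (limma 3.58.1), RLE, upper-quartile and total-count scaling, other filters, a robust fit, a replicate block and each library left out. A correction for GC content and length, the fit without the chromosome 17 stretch and a crossed block were added after seeing the data. Genes were placed by RefSeq's coordinates (GRCm38.p6), which covered 99.2% of symbols. GENCODE M21 gave exon lengths. The procedure was checked on simulated counts.

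The members and all lists were chosen with earlier results of these data known. Named genes are the members, Alkbh5, the genes of the pathway and marker lists, and the 6 genes nearest to the mean pattern of H2-Aa, H2-Ab1, H2-Eb1 and Cd74. Genes of the stretch, its flanks and families, genes overlapping a member and those nearest to Cd74 alone were named after their values were seen. CPM of total counts, without TMM factors, were added later. Some genes of the lists are not reported here by name.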

Additional observations from a re-analysis of the deposited data

How the results depend on the processing

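Of 412 results under the alternatives, 376 kept their direction and their side of the threshold or stayed within the spread between replicates. Depth did not limit Cd74, Ciita, Rfx5 and Rfxap, each with over 200 counts in every library. The chromosome 17 genes could not be read at any setting. Causes of the changes below were not tested.

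The count of genes past the adjusted threshold was 0 in edgeR (1530 at an unadjusted p under 0.05), 55 in DESeq2 on the same genes and 59 with its default filtering, where Alkbh5 was at -2.01 (adjusted p = 0.0248) and -2.02 (adjusted p = 0.0224). It was 0 in every other alternative but the crossed pairing. With the replicate number as a block edgeR called 0, with 754 at an unadjusted p under 0.05, and Cd74 was at -0.67, Ciita at -0.25, Rfx5 at 0.49 and Rfxap at -0.17, so that the block changed no call. Same-numbered libraries deviated oppositely (r = -0.35 across genes, which are not independent), and a block of the crossed pairs gave 230 calls.

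With total counts only, Ciita was at 0.13, Rfxap at 0.17, promoter factors at 0.44, the interferon-gamma route at 0.18, AT2 markers at -0.51 and club and ciliated markers at -0.38 (main medians 0.12, -0.13, -0.85 and -0.68 for the 4 lists). The interferon-gamma route was at -0.041 with upper-quartile factors and -0.014 with DESeq2's default filtering. With the GC content and length correction, Rfxap was at 0.016 and promoter factors at -0.27. Without the chromosome 17 stretch the class II median was -0.17.

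Leaving out 1 library at a time, Ciita ranged from -0.77 to 0.18, Rfxap from -0.40 to 0.028 and H2-DMb1 from -3.21 to 1.09. The class II median ranged from -1.05 to -0.14 and that of the 4 genes outside the stretch from -0.59 to 0.11. List medians ranged from -0.21 to 0.16 for promoter factors, -0.87 to 0.19 for antigen processing, -0.076 to 0.096 for the interferon-gamma route, -1.06 to -0.35 for AT2, -0.71 to 1.03 for pan-leukocyte, -1.92 to 1.47 for macrophage, -0.39 to 1.94 for dendritic cell, -1.23 to 0.0042 for T cell, -1.51 to 2.06 for plasma cell, -0.87 to 0.99 for endothelial and mesenchymal, -1.10 to -0.47 for club and ciliated, -0.39 to 0.95 for T-cell ligands, and -0.20 to 1.31 for AT1 and transitional markers.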

Other observations

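Other epithelial genes gave values that enter no comparison with class II genes above. The 10 AT1 and transitional markers had 8 tested, 7 of them higher and 1 lower in A5-CKO (median 0.45), none past the adjusted threshold in edgeR. Hopx, a regulator expressed in AT1 cells, was at 124, 63.3, 146 and 143 CPM, and Cav1, the caveolin gene of AT1 and endothelial cells, at 81.0, 45.0, 95.8 and 118 CPM. Aqp5, a water channel, was the one lower, at 981, 951, 479 and 636 CPM. Ager, a defining AT1 gene, lies in the chromosome 17 stretch and had at most 0.349 CPM. The 6 club and ciliated markers were all lower (median -0.68), with Foxj1, the regulator of motile cilia, at 21.6, 17.9, 4.80 and 9.02 CPM.

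Among 8 plasma cell markers 5 were higher and 3 lower (median 0.18), and none passed the adjusted threshold in edgeR. Igha, the IgA heavy chain, was at 1813, 407, 606 and 2689 CPM. Ighg3 and Ighm, 2 of the 8, were lower in A5-CKO without overlap, against 23.5% of all genes tested. Each had an unadjusted p under 0.05 in edgeR, against 4.71% of all genes tested that were lower at that level. Ighg3 was at 3.96, 13.7, 0.0453 and 0.0427 CPM, below the floor in A5-CKO (log2 fold change -7.46, SE 1.02). DESeq2 with default filtering called Ighg3 (adjusted p = 8.07e-06). Ighm, not called there, was at 31.4, 12.3, 4.71 and 7.95 CPM (log2 fold change -1.79, SE 0.58). Endothelial and mesenchymal markers, 7 higher and 3 lower (median 0.24), included Col1a1 at 147, 32.5, 21.3 and 386 CPM. The sums of both lists were high in the libraries in which macrophage markers were high. Among the plasma cell markers, Ighm and Ighg3 did not follow this pattern. In the other list Col1a1, Col1a2, Col3a1, Pdgfrb and Dcn followed it, and Pecam1, Cdh5, Kdr, Tie1 and Pdgfra did not. Kdr, an endothelial gene, was at 6.80, 24.8, 16.8 and 14.6 CPM.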
